A study of Mus musculus with 4 samples.

Results

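The cells described here are bone marrow stromal cells of C57BL/6 mice that hold high levels of Adipoq (adiponectin, a circulating hormone of fat lineage cells; ENSMUSG00000022878), Lepr (the leptin receptor) and Esm1 (endocan, a secreted proteoglycan). They were found in single-cell RNA sequencing of marrow from crushed, collagenase-treated femora and tibiae, sorted as CD45-TER119-CD31-CD140a+CD51+ cells. A barcode was kept with at least 2000 unique molecular identifiers (UMIs, each standing for 1 counted transcript), at least 500 genes and at most 10% of UMIs from mitochondrial genes. A kept barcode was a member where Adipoq, Lepr and Esm1 together reached 10 UMIs per 10000, with fewer than 2 Mmp9 UMIs and 0 Ptprc UMIs. That rule took 3188 of 21483 kept barcodes, so the members were chosen by their measured levels of these 5 genes.

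The series holds 4 libraries, 1 per group. WT_A1 is wild type and is set against NHD13Tg, a transgenic line carrying a Nup98-HoxD13 fusion, which is used as a model of myelodysplastic syndrome (MDS), a clonal blood disorder with failing blood cell formation. Control is wild type and is set against Abcg2-MDS/AML, the second MDS model, for which the labels give only this name (AML is acute myeloid leukaemia). All 4 groups share the strain, the tissue and the sort, and the labels name no promoter, number of animals or age. In all lists of 4 values below, the order is WT_A1, NHD13Tg, Control and Abcg2-MDS/AML. With 1 library per group, a difference between libraries has no replicate check, carries no p-value, and its interval (95%) covers counting error only.

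As background, reticular stromal cells of the marrow lie around sinusoids and reach among blood-forming cells. They are known as the main marrow source of CXCL12, the chemokine that holds blood stem cells in the marrow, and of stem cell factor (encoded by Kitl), which those stem cells need to survive. Cells of this kind carry the leptin receptor and express adiponectin and lipid genes without being fat cells, and some of their lineage can become fat cells or osteoblasts.

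Members numbered 690, 1898, 425 and 175. They made up 13.9% (exact binomial interval 12.9 to 14.9), 32.9% (31.7 to 34.1), 8.24% (7.5 to 9.02) and 3.13% (2.69 to 3.62) of kept barcodes, so the share was highest in NHD13Tg and lowest in Abcg2-MDS/AML. Sorting and cell recovery set such shares together with the marrow's makeup, and these cannot be told apart here. The matrices held from 36133716 to 46033790 UMIs per library. Median UMIs per member were 4419.5, 4482, 3559 and 3253, against 5723, 5367.5, 5288 and 4248 in the other kept barcodes. The summed UMIs of members were 3295213, 9361356, 1695484 and 611409, so values in the Abcg2-MDS/AML library are the least precise. Between 6 and 14 kept barcodes had the same sequence in any pair of libraries, and 0 of these were members in both libraries.

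The rule itself fixed that Adipoq, Lepr and Esm1 are high in members, and the genes below that travel with them are described with no test. Levels are UMIs of a gene per 1000000 summed UMIs (CPM). Adipoq stood at 1245, 2076, 3372 and 219 CPM in members and at 4.8, 12.1, 3.89 and 2.85 CPM in the other kept barcodes of the same libraries. Esm1 stood at 679, 919, 1155 and 209 CPM in members and at 4.6, 9.93, 2.16 and 2.02 CPM in the others. Lepr stood at 1405, 877, 1072 and 1490.0 CPM in members and at 55.6, 69.7, 20.7 and 46.7 CPM in the others. Adipoq and Esm1 were thus far lower in the Abcg2-MDS/AML members than in the members of the other libraries, while Lepr was highest there. A member low in Adipoq and Esm1 has to reach the threshold by Lepr. Differences between libraries in these genes are therefore set in part by the rule.

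Of the markers that the rule did not use, Cxcl12 stood at 17789.7, 16908, 16724 and 1557 CPM in members against 608, 902, 68.3 and 295 in the others. Kitl stood at 1407, 1577, 2028 and 638 CPM against 33.6, 52.8, 7.16 and 48.4. Hp, which encodes the haemoglobin-binding plasma protein haptoglobin, stood at 6816, 11899.9, 5229 and 3654 CPM against 83.5, 235, 15.8 and 346. These 3 markers were chosen with earlier results of these data known, so they describe the members and are no independent check of the name as reticular cells. All 3 were higher in members than in the other barcodes of every library, and their levels in the Abcg2-MDS/AML members were below those in the other members. With each cell thinned to 2000 UMIs, 75.4, 87.3, 94.6 and 21.7% of members held an Adipoq UMI, against 0.934, 1.63, 0.592 and 0.481% of the others. For Esm1 the shares were 66.1, 76.7, 80.9 and 21.7%, against 0.957, 1.63, 0.423 and 0.554%. At the same depth 4.49, 2.32, 1.65 and 48.0% of members held no Cxcl12 UMI.

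**Figure D1:**
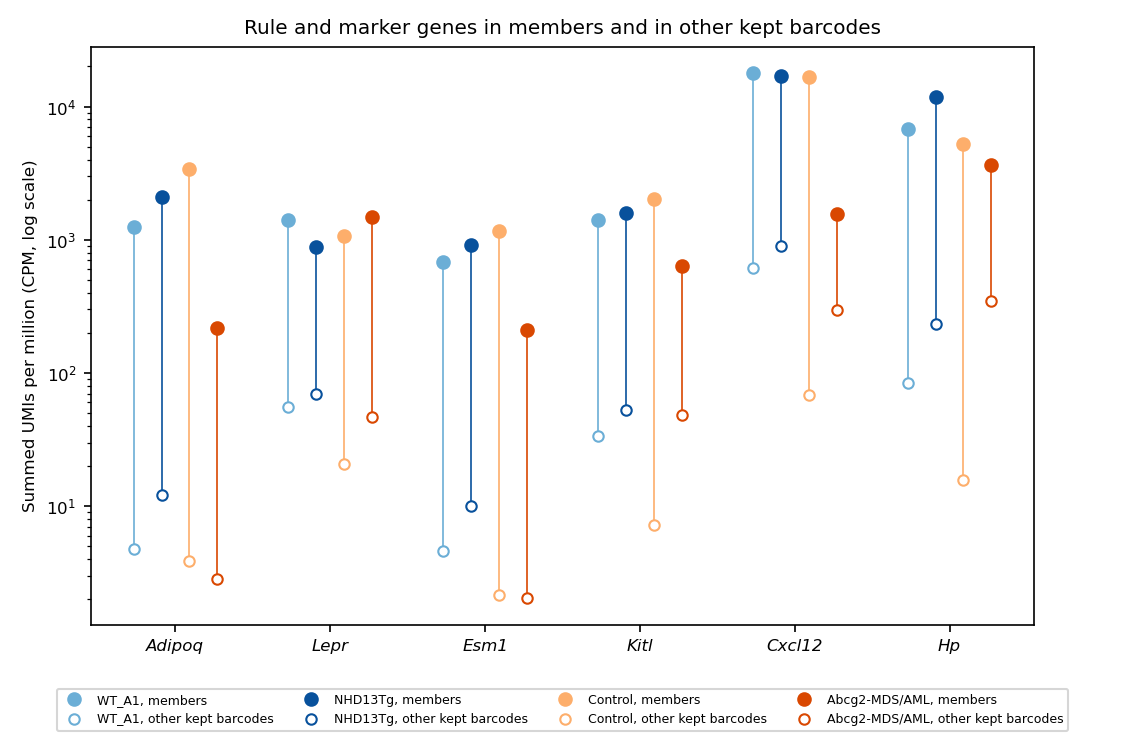
CPM (log axis) of the 3 rule genes and the 3 further markers, for each library. Filled points are members and open points are the other kept barcodes of the same library. In each library every filled point lies above its open point, and the Abcg2-MDS/AML members lie below the other members for Adipoq, Esm1, Kitl, Cxcl12 and Hp but not for Lepr.

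The genes of the sort were present in the members of all libraries. Members held 379.9, 279.7, 398 and 363 CPM of Pdgfra (CD140a) and 110.2, 120.3, 123 and 78.5 CPM of Itgav (CD51). Barcodes just inside the threshold (10 to under 12 UMIs per 10000) numbered 34, 62, 8 and 39, and barcodes just outside it (8 to under 10) that met the other criteria numbered 60, 79, 21 and 64. Cxcl12 stood at 6846, 6523, 3148 and 750 CPM just inside and at 3807, 5026, 2033 and 1181 CPM just outside. Cxcl12 was lower just outside the threshold in the first 3 libraries, and in Abcg2-MDS/AML it was higher there than just inside.

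Members entered the rule by different genes. In WT_A1, NHD13Tg and Control, 61, 81 and 10 members had Lepr UMIs but no Adipoq or Esm1 UMI, or 8.84%, 4.27% and 2.35% of members. In Abcg2-MDS/AML there were 97 of 175, or 55.4% (exact binomial interval 47.7 to 62.9). With all cells thinned to 2000 UMIs the shares were 12.2%, 6.38%, 2.59% and 64.6%. This split was drawn after the values had been seen, so it is given with no test.

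Lepr-only members differed from those bearing Adipoq or Esm1 in the reticular markers. Cxcl12 stood at 19058, 17505, 17049 and 2313 CPM in bearing members and at 3084, 1069, 2277 and 889.9 in Lepr-only members. Kitl stood at 1514, 1633, 2070.4 and 1088 CPM against 168, 112, 161 and 240.2, and Gdpd2, a glycerophosphodiester phosphodiesterase gene, at 785, 785, 735 and 255 against 91.7, 85.4, 214 and 98.5. The transcription factor gene Ebf3, which marrow reticular cells need, stood at 578, 477, 548 and 119 CPM against 99.4, 61.8, 26.8 and 77. All of these were lower in the Lepr-only cells of every library, while Pdgfra, the sort gene, was at 381, 276, 399.8 and 391 CPM in bearing members and at 371, 383, 295 and 339 in Lepr-only members.

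Several genes of fibrous connective tissue, picked after their values were seen, were higher in Lepr-only members. Clec3b, which encodes tetranectin, stood at 37.6, 26.8, 13.9 and 6.98 CPM in bearing members and at 929, 942, 589 and 132 in Lepr-only members. Dpt (dermatopontin, a matrix protein of fibroblasts) stood at 22.1, 21.2, 2.41 and 10.5 against 275, 271, 134 and 55.4 CPM. Fmod (fibromodulin, a collagen-binding proteoglycan of tendon) stood at 39.6, 47.7, 96.5 and 41.9 against 1234, 1113, 509 and 579 CPM. Thbs4, a thrombospondin of tendon, stood at 60, 48, 41.6 and 38.4 against 1276, 1222, 643 and 1373 CPM. Angptl7, an angiopoietin-like secreted protein gene, stood at 46.8, 65, 59.1 and 265 against 2117, 2953, 1125 and 4359.9 CPM, and the proteoglycan gene Dcn (decorin) at 2411, 2686, 1422 and 8914 against 29298, 39132, 20924 and 31142. Each of these 6 genes was higher in the Lepr-only cells of all 4 libraries. Lists of 8 fibroblast and 7 tenocyte markers summed to 216, 299, 41.6 and 108 and to 327, 265, 201 and 209 CPM in bearing members. In Lepr-only members the same lists summed to 3485, 3709, 2974 and 794 and to 5816, 5490, 2224 and 3039 CPM. The Lepr-only values of Control rest on 10 cells. In that library 1 member held 42.2% of the 180 fibroblast marker UMIs of all members. Chondrocyte markers were higher there too, at a sum of 523, 974, 2476 and 733 CPM in bearing members and of 5163, 7907, 6242 and 2780 in Lepr-only members.

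**Figure D2:**
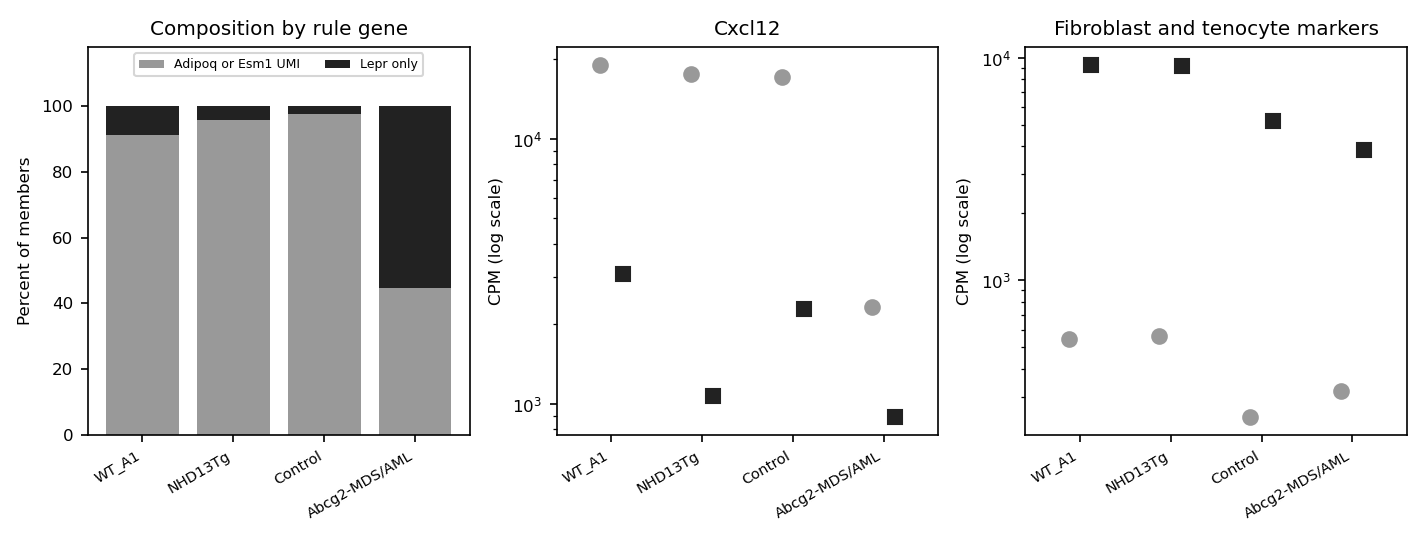
Left, percent of members with an Adipoq or Esm1 UMI (grey) and with Lepr UMIs only (black) in each library. Middle and right, CPM on log axes of Cxcl12 and of the summed fibroblast and tenocyte markers in bearing (circles) and Lepr-only (squares) members. Lepr-only cells make up 55.4% of the Abcg2-MDS/AML members, and in every library they hold less Cxcl12 and more of the fibrous markers.

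Cxcl12 and Kitl were lower in Abcg2-MDS/AML than in Control also among the bearing cells. Among bearing cells only, Cxcl12 was at 2313 CPM in Abcg2-MDS/AML and 17049 in Control, and Kitl at 1088 and 2070 CPM. In the same cells Hp was at 6465 CPM in Abcg2-MDS/AML and 5344 in Control, and Apoe, which encodes the lipid carrier apolipoprotein E, at 6838 and 4773. The bearing cells of Abcg2-MDS/AML numbered 78. A cell counted as bearing with any Adipoq or Esm1 UMI, and Dcn and Angptl7 were higher in the bearing cells of Abcg2-MDS/AML than of Control. Whether the bearing cells of both libraries are alike in makeup was not tested.

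To describe what else marks the members, each library's members were set against its other kept barcodes, with 10 CPM added to each level. Of 5103 genes with enough signal, 246 (4.82%) were at least 2-fold higher in members in all 4 libraries and 53 (1.04%) at least 2-fold lower. Without the Abcg2-MDS/AML library these were 406 (7.96%) and 151 (2.96%), and with bearing members only 132 were lower. The rule chose the cells on their expression, so these counts describe the members and test nothing.

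Among the transcription factors of reticular cells, 4 of 15 measured were higher in all 4 libraries, against 4.82% of all 5103 genes. Ebf3 stood at 539.6, 462, 536 and 96.5 CPM in members against 20.7, 26, 6 and 16.5 in the others. Runx1, a regulator of blood and stromal development, stood at 1324, 1115, 1735 and 783 CPM against 391, 411, 179 and 249. Cebpa, a driver of fat cell formation, stood at 134, 138, 129 and 24.5 CPM against 13.8, 12.5, 4.27 and 6.96. Without Abcg2-MDS/AML, 8 of the 15 were higher, against 7.96% of all genes. Ebf3, Runx1 and Cebpa were each lowest in the Abcg2-MDS/AML members.

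Of the factors that feed or hold blood cells, 10 of 18 measured were higher in all 4 libraries, against 4.82% of all 5103 genes. Besides Cxcl12 and Kitl they included Vcam1, an adhesion molecule for blood stem cells, at 1522, 807, 2083 and 1225 CPM in members against 76.9, 77.4, 9.95 and 98.9 in the others. Tnfsf11, which encodes RANKL, the inducer of osteoclasts, stood at 209, 357, 238 and 275 CPM against 10.7, 16.2, 3.11 and 21.4. Both macrophage growth factors of the list were included: Csf1 stood at 618, 422, 411 and 144 CPM against 128, 130.1, 17.1 and 45.4, and Il34 at 193, 114, 199.9 and 164 against 11, 10.2, 4.35 and 14.3. Il6, Cxcl14, Angpt1 and the cadherin gene Cdh2 were the others.

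Lipid and plasma protein genes also marked the members. For comparison, 4.82% of all 5103 genes were higher in members in all 4 libraries and 1.04% lower. Of 12 adipogenic and lipid genes measured, 5 were higher in all 4 libraries, among them Gdpd2 at 729.8, 759.8, 723 and 172 CPM against 8.42, 18.3, 2.24 and 4.71 and Apoe at 3925, 5209, 4701 and 4356 CPM against 263, 588, 591 and 1238. Genes better known from liver were high as well. Trf, which encodes the iron carrier transferrin, stood at 604, 1543, 841 and 463 CPM against 16.2, 47, 3.7 and 30. The kininogen genes Kng1 and Kng2 stood at 424, 765, 492 and 99.8 and at 402, 875, 494 and 209 CPM, against 2.64, 9.34, 0.811 and 3.98 and 8.85, 17.1, 0.919 and 14.2. These 2 genes are close copies of each other, so reads could be split between them, and the same holds for the class I genes of the H2 family and for the Serpina3 family. Of 16 plasma protein and acute-phase genes measured, 6 were higher in all 4 libraries and F3, the tissue factor gene, was lower.

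Interferon response genes stood above the other cells too, with 10 of 17 measured higher in all 4 libraries and 0 lower. Over all 5103 genes these shares were 4.82% and 1.04%. Iigp1, an interferon-induced GTPase that acts against intracellular pathogens, stood at 888, 171, 2089.7 and 278 CPM against 15.6, 13.8, 5 and 17.1. The chemokine gene Cxcl9 stood at 412, 151, 836 and 347 CPM against 3.26, 2.64, 2.38 and 30.3, and the class I antigen gene H2-K1 at 3385, 3076, 2719 and 1724 against 319, 408, 142 and 216. Il1rn, which encodes the interleukin-1 receptor antagonist, stood at 411, 631, 387 and 116 CPM against 1.93, 9.69, 0.838 and 7.33. Epas1, an oxygen-sensitive transcription factor gene, stood at 556, 603, 521 and 491 against 19.1, 28.6, 26 and 47 CPM. The other genes named by the ranking were H2-Q10, H2-Q7, S1pr3, Serpina3g, Cyp1b1 and Kcne4.

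Genes lower in members included genes of cartilage and bone matrix. Col2a1, the main collagen of cartilage, stood at 17.3, 3.95, 673 and 90 CPM in members against 135, 109.6, 6107 and 3015 in the others. Fn1 (fibronectin) stood at 345, 602, 344 and 523 CPM against 6122, 5357, 1934 and 2157, and Sparc (osteonectin, a bone matrix protein) at 2204, 2189, 4735 and 2674 against 7599.8, 8497, 15839 and 10891. The other 7 named by the ranking were Col11a2, Col11a1, Pcolce2, Cytl1, Mmp3, Chad and Col6a3. For each of the 53 genes lower in all 4 libraries, free RNA reached the level of the members in at least 1 library. Of 22 osteolineage genes measured, 4 were higher and 3 lower in all 4 libraries, and without Abcg2-MDS/AML 5 were higher and 8 lower. Over all 5103 genes, 4.82% were higher and 1.04% lower, and 7.96% and 2.96% without Abcg2-MDS/AML. A list of 8 osteoblast markers summed to 4155, 3611, 5231 and 4830 CPM in members and to 14170, 19812, 8041 and 3065 in the others, so in Abcg2-MDS/AML the sum was higher in members. Free RNA, read from barcodes with 1 to 100 UMIs, held 17885, 28993, 7842 and 4491 CPM of the same markers, so it lies above the members except in Abcg2-MDS/AML.

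Markers of other cell types, most of which the sort should remove, were summed in members and in the other kept barcodes. Endothelial markers summed to 33.4, 15.3, 21.8 and 14.7 CPM in members and to 7.67, 9.97, 11.8 and 8.19 in the others, with Cdh5 at 0 in all 4 libraries. Neutrophil markers summed to 221, 91.9, 44.8 and 0 CPM against 1576, 1631, 1498 and 52.8, and in WT_A1 1 cell held 87.1% of them. Macrophage and lymphocyte markers summed to 37, 23.1, 15.3 and 13.1 CPM against 24.2, 32.6, 17.5 and 14.2, with Ptprc at 0 by the rule. Mural markers summed to 157, 137, 178 and 237 CPM against 149, 123, 53.4 and 181. Endothelial and mural sums were thus higher in members of every library, and neutrophil sums lower. Erythroid markers summed to 286, 429, 199 and 16.4 CPM against 388, 64.3, 6752 and 7.92, with 68.5% of them in 1 cell in WT_A1 and 63.4% in 1 cell in NHD13Tg. Mature adipocyte markers other than Adipoq summed to 103, 82.3, 74.9 and 155 CPM in members and to 7.21, 7.80, 12.8 and 203 in the others, with Cidec, which encodes a fat droplet protein, at 0 in all 4.

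The NHD13 pair asks how reticular cells differ in a marrow with the Nup98-HoxD13 fusion. Within members Nup98 stood at 70, 192, 37 and 7 UMIs and Hoxd13 at 1, 4, 0 and 0 UMIs. These reads from transcript ends do not separate the fusion from the native genes, so they check neither label. A size rule, which is no test, asked for a 2-fold ratio with an interval that leaves out 1, among 6176 genes that reached 20 CPM in either library. It took 63 genes (1.02%) as higher in NHD13Tg members and 116 (1.88%) as lower. The median log2 ratio of these genes was -0.05.

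The highest named genes in NHD13Tg members include secreted acute-phase proteins. Saa3, which encodes serum amyloid A3, stood at 28.5 CPM in WT_A1 and 304 CPM in NHD13Tg, a log2 ratio of 3.41 (3.12 to 3.72). In WT_A1, 47% of its UMIs came from 1 cell. Lrg1, a leucine-rich plasma glycoprotein gene, stood at 50.1 CPM in WT_A1 and 308 CPM in NHD13Tg, a log2 ratio of 2.62 (2.39 to 2.86). The protease inhibitor gene Serpina3n stood at 256 CPM in WT_A1 and 813 CPM in NHD13Tg, a log2 ratio of 1.67 (1.56 to 1.77). Hp stood at 6816 CPM in WT_A1 and 11899.9 CPM in NHD13Tg, a log2 ratio of 0.80 (0.78 to 0.82). Of 23 plasma protein and acute-phase genes measured, 8 were at least 1.5-fold higher and 4 lower, against 4.25% and 9.54% of all 10073 genes measured. The list's median log2 ratio was 0.50, against -0.07 for all genes measured. In the other kept barcodes Lrg1 was at 3.59, 9.37, 1.49 and 11 CPM and Hp at 83.5, 235, 15.8 and 346 CPM, so both were higher in NHD13Tg there as well, at far lower levels.

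The ranking also named genes that act on the matrix, although the list of 30 matrix and basement membrane genes went both ways, with 4 at least 1.5-fold higher, 4 lower and a median log2 ratio of -0.04. Mmp13, a collagenase gene, stood at 405 CPM in WT_A1 and 1677 CPM in NHD13Tg, a log2 ratio of 2.05 (1.97 to 2.13). Has2, which encodes a hyaluronan synthase, stood at 11.2 CPM in WT_A1 and 57.7 CPM in NHD13Tg, a log2 ratio of 2.34 (1.88 to 2.88). Wisp2, a secreted modulator of Wnt signalling, stood at 420.3 CPM in WT_A1 and 1425 CPM in NHD13Tg, a log2 ratio of 1.76 (1.68 to 1.84). Of 25 hypoxia and glycolysis genes measured, 11 were at least 1.5-fold higher in NHD13Tg and Pgk1 was lower, with a median log2 ratio of 0.53. Of all 10073 genes measured in this pair, 4.25% were higher and 9.54% lower. Vegfa, the vascular growth factor gene, stood at 496 CPM in WT_A1 and 893 CPM in NHD13Tg, a log2 ratio of 0.85 (0.77 to 0.93). Bnip3, a mitophagy receptor gene that responds to low oxygen, stood at 47.3 CPM in WT_A1 and 164 CPM in NHD13Tg, a log2 ratio of 1.79 (1.55 to 2.04). The ranking also named Slc22a8, Serpina3m, Barx2, Slc10a6, Ifitm1 and Ugcg.

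Niche factors in the NHD13 pair went both ways. Cxcl12 stood at 17789.7 CPM in WT_A1 and 16908 CPM in NHD13Tg and Kitl at 1407 CPM in WT_A1 and 1577 CPM in NHD13Tg, which are log2 ratios of -0.07 (-0.09 to -0.06) and 0.16 (0.12 to 0.21). Of 24 niche factors measured, 3 were at least 1.5-fold higher and 7 lower, against 4.25% and 9.54% of all 10073 genes measured. Their median was -0.22. The lower ones included Vcam1 at 1522 CPM in WT_A1 and 807 CPM in NHD13Tg, Igf1 (insulin-like growth factor) at 304 CPM in WT_A1 and 147 CPM in NHD13Tg and Spp1 (osteopontin, a bone matrix protein) at 4189 CPM in WT_A1 and 2424 CPM in NHD13Tg. The higher ones were Bmp4, Cxcl14 and Tnfsf11, with Cxcl14 at 2920.0 CPM in WT_A1 and 4592 CPM in NHD13Tg. Of 19 reticular transcription factors measured, 1 was higher and 1 lower. The adipogenic and lipid list had a median of 0.32, with 3 of 18 genes higher and 1 lower. Adipoq was at a log2 ratio of 0.74 (0.69 to 0.79) and Lepr at -0.68 (-0.73 to -0.63). Both are genes that the rule sums, so their ratios are set in part by the choice of members.

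In the Abcg2 pair, the size rule took 510 of 6497 genes (7.85%) as 2-fold or more higher in the Abcg2-MDS/AML members and 865 (13.3%) as lower. The median log2 ratio was -0.13. This pair compares 425 members with 175, of which 55.4% were Lepr-only. A level in these members therefore joins the makeup of the members with the level in each cell, and for some genes the value among bearing members alone is given beside the main one. Abcg2 itself stood at 137 UMIs in Control members and 24 in Abcg2-MDS/AML members, or 80.8 and 39.3 CPM.

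Niche factors were more often lower than higher. Of 24 measured, 15 were at least 1.5-fold lower and 3 higher (Spp1, Tnfrsf11b and Cd200), against 16.2% and 9.78% of all 10257 genes measured. The list's median log2 ratio was -1.23, against -0.12 for all genes measured. Cxcl12 stood at 16724 CPM in Control and 1557 CPM in Abcg2-MDS/AML, a log2 ratio of -3.42 (-3.52 to -3.33). Kitl stood at 2028 CPM in Control and 638 CPM in Abcg2-MDS/AML, a log2 ratio of -1.67 (-1.82 to -1.52). Gas6, a ligand of the TAM receptor kinases, stood at 2002 CPM in Control and 425 CPM in Abcg2-MDS/AML, a log2 ratio of -2.23 (-2.42 to -2.05). Il7, the lymphoid growth factor gene, stood at 156 CPM in Control and 11.4 CPM in Abcg2-MDS/AML, a log2 ratio of -3.67 (-5.10 to -2.71). In bearing members of all 4 libraries Gas6 was at 1959.8, 1870.4, 2030.0 and 422 CPM and Il7 at 94, 64.2, 159 and 20.9 CPM, so both were lowest in Abcg2-MDS/AML there as well.

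Reticular transcription factor genes were also more often lower. Of 19 reticular transcription factors measured, 10 were lower by 1.5-fold or more and 0 were higher, and their median was -0.73. Of all 10257 genes measured in this pair, 16.2% were lower and 9.78% higher. Ebf3 stood at 536 CPM in Control and 96.5 CPM in Abcg2-MDS/AML, a log2 ratio of -2.46 (-2.88 to -2.09), and among bearing members at 548 CPM in Control and 119 in Abcg2-MDS/AML. Lpl, the lipoprotein lipase gene, stood at 2744 CPM in Control and 221 CPM in Abcg2-MDS/AML, a log2 ratio of -3.63 (-3.89 to -3.39), and among bearing members at 2805 CPM in Control and 363 in Abcg2-MDS/AML. Other adipogenic genes were higher, so that 6 of 19 were higher and 6 lower. Grem1, a secreted BMP antagonist gene, stood at 1317 CPM in Control and 72 CPM in Abcg2-MDS/AML, a log2 ratio of -4.18 (-4.66 to -3.76), and among bearing members at 1346 and 126 CPM. In all members 13 of 23 secreted Wnt, BMP and activin modulators were lower by 1.5-fold or more and 2 higher, against the same 16.2% and 9.78%.

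The genes with the highest ratios in Abcg2-MDS/AML members were of several kinds. Gpnmb, a glycoprotein gene of macrophages and osteoblasts, had 51 UMIs in Abcg2-MDS/AML and 0 in Control, at least 47.1-fold higher against a floor of 3 counts in the library. Serpina3n stood at 9.44 CPM in Control and 359.8 CPM in Abcg2-MDS/AML, a log2 ratio of 5.21 (4.52 to 6.09). Angptl7 stood at 82.6 CPM in Control and 2440.3 CPM in Abcg2-MDS/AML, a log2 ratio of 4.88 (4.63 to 5.15), and Dcn at 1851 CPM in Control and 20721 CPM in Abcg2-MDS/AML, a log2 ratio of 3.48 (3.43 to 3.54). Both are genes that Lepr-only members held at a higher level than bearing members in every library. Serpina3n was at 254, 827, 9.65 and 513 CPM among bearing members and at 206, 277, 15.6 and 385 CPM in the other kept barcodes, which have the same order of libraries within each pair. For Dmp1, an osteocyte matrix gene, 1 cell held 100% of the Abcg2-MDS/AML UMIs, and for Acp5 1 cell held 86%. The ranking also named Serpina3m, Slc10a6, Dkk2 and Chchd10.

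Among the lowest named genes, 8 had 0 UMIs in Abcg2-MDS/AML members. Kcnq3, a potassium channel gene, had 66 UMIs in Control members and was at least 7.93-fold lower against a floor of 3 counts. Adh1, an alcohol dehydrogenase gene, was at least 6.25-fold lower and Angpt4, an angiopoietin gene, at least 5.77-fold lower. Wdr86 stood at 80.8 CPM in Control and 1.64 CPM in Abcg2-MDS/AML, a log2 ratio of -5.05 (-10.94 to -3.12). The others were Syt6, Slco1a4, Kiss1r, Tfpi2, Spon2 and Slc16a7. Spp1, at 1058 CPM in Control and 3865 CPM in Abcg2-MDS/AML, was higher over all members but at a log2 ratio of -0.32 among bearing members only, and 1 cell held 69.5% of its Abcg2-MDS/AML UMIs.

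Interferon response genes were lower in the model library of both pairs. Interferons induce these genes through their receptors at the cell surface, and many of their products act against viruses and intracellular microbes or present antigens. Of 40 measured in each pair, 32 were lower by 1.5-fold or more in the NHD13 pair and 0 were higher, and the median log2 ratio was -1.18. Of all 10073 genes measured in that pair, 9.54% were lower and 4.25% higher. In the Abcg2 pair 33 were lower and 0 higher, with a median of -1.90. There 16.2% of all 10257 genes measured were lower and 9.78% higher. Among bearing members alone the medians were -1.24 and -1.34. The 2 pairs do not share a library.

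Iigp1 stood at 888, 171, 2089.7 and 278 CPM, with log2 ratios of -2.38 (-2.47 to -2.29) in the NHD13 pair and -2.91 (-3.14 to -2.69) in the Abcg2 pair. Cxcl10, a chemokine gene for T cells, stood at 816, 178, 2994 and 617 CPM, with log2 ratios of -2.19 (-2.28 to -2.10) and -2.28 (-2.43 to -2.13). In both pairs the wild-type library was the higher one, and Control held the most of both transcripts. Isg15, a ubiquitin-like modifier gene, stood at 248, 81.1, 523 and 96.5 CPM, with log2 ratios of -1.61 (-1.76 to -1.47) and -2.43 (-2.84 to -2.06). The transcription factor gene Irf1 stood at 660.0, 301, 970.2 and 276 CPM. Bst2, which encodes the virus-tethering protein tetherin, stood at 295, 129.7, 619.9 and 105 CPM. For each of the genes Isg15, Irf1 and Bst2 Control was the highest library, WT_A1 came next and the model libraries were lowest. In the other kept barcodes Iigp1 was at 15.6, 13.8, 5 and 17.1 CPM, Cxcl10 at 33.5, 29.8, 13.5 and 63.3 and Isg15 at 16.3, 25.7, 12.4 and 16.5, with no such order.

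The 8 genes with the largest ratios below 1 in both pairs were Iigp1, Ifit1, Cxcl10, Igtp, Rtp4, Irgm1, Irgm2 and Trim65, and 7 of them are on the interferon list. Ifit1, which encodes a sensor of foreign RNA ends, stood at 40.7, 8.65, 214 and 8.18 CPM. The GTPase genes Igtp, Irgm1 and Irgm2, which guard against intracellular parasites, stood at 55.2, 12.1, 84.3 and 3.27, at 71, 18.1, 199.9 and 27.8 and at 27, 8.23, 45.4 and 8.18 CPM. Both wild-type libraries were above both model libraries for each of these. Promoters were looked up for them in RefSeq (GRCm38.p6), which held 5 of the 8. The 250 bases before the gene start were searched on both strands for GAAA followed by any 2 bases and a further GAAA, the core of the interferon-stimulated response element. It was found in all 5, in 18 of the 35 interferon list genes in the table (51.4%), and in 936 of 27025 genes (3.46%). A match is a description of letters and not of binding. The stretches next to the gene start are shown because the genes have this motif and were lower in both model libraries, with the motif or its reverse complement in capitals.
Ifit1: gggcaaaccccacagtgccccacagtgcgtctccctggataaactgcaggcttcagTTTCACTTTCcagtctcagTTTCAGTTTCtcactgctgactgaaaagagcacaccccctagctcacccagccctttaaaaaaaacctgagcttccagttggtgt
Cxcl10: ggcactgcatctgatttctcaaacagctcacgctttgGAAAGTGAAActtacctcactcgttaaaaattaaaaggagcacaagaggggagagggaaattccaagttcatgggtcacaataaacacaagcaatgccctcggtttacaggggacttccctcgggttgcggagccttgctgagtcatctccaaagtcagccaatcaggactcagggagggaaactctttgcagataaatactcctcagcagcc
Irgm1: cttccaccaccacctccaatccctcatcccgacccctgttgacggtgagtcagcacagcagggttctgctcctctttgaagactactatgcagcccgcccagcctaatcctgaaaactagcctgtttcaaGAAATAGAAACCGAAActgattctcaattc
Irgm2: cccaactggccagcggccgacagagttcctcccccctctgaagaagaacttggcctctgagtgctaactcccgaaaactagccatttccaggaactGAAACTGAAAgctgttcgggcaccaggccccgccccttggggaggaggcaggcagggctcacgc
Igtp: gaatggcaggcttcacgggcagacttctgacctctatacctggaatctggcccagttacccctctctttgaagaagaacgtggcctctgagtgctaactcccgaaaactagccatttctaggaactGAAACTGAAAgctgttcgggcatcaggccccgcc
Each is written 5′ to 3′ on the strand of its gene. The Ifit1 stretch is chr19:34640729-34640888, plus strand, and it has 2 matches, both as the reverse complement. The Cxcl10 stretch is chr5:92348890-92349139, minus strand, and its match lies far from the start, so 250 bases are shown in place of 160. The Irgm1 stretch is chr11:48871421-48871580, minus strand, where 2 matches overlap. The Irgm2 stretch is chr11:58214817-58214976, plus strand and that of Igtp chr11:58199396-58199555, plus strand, each with 1 match of the same 10 letters.

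**Figure D3:**
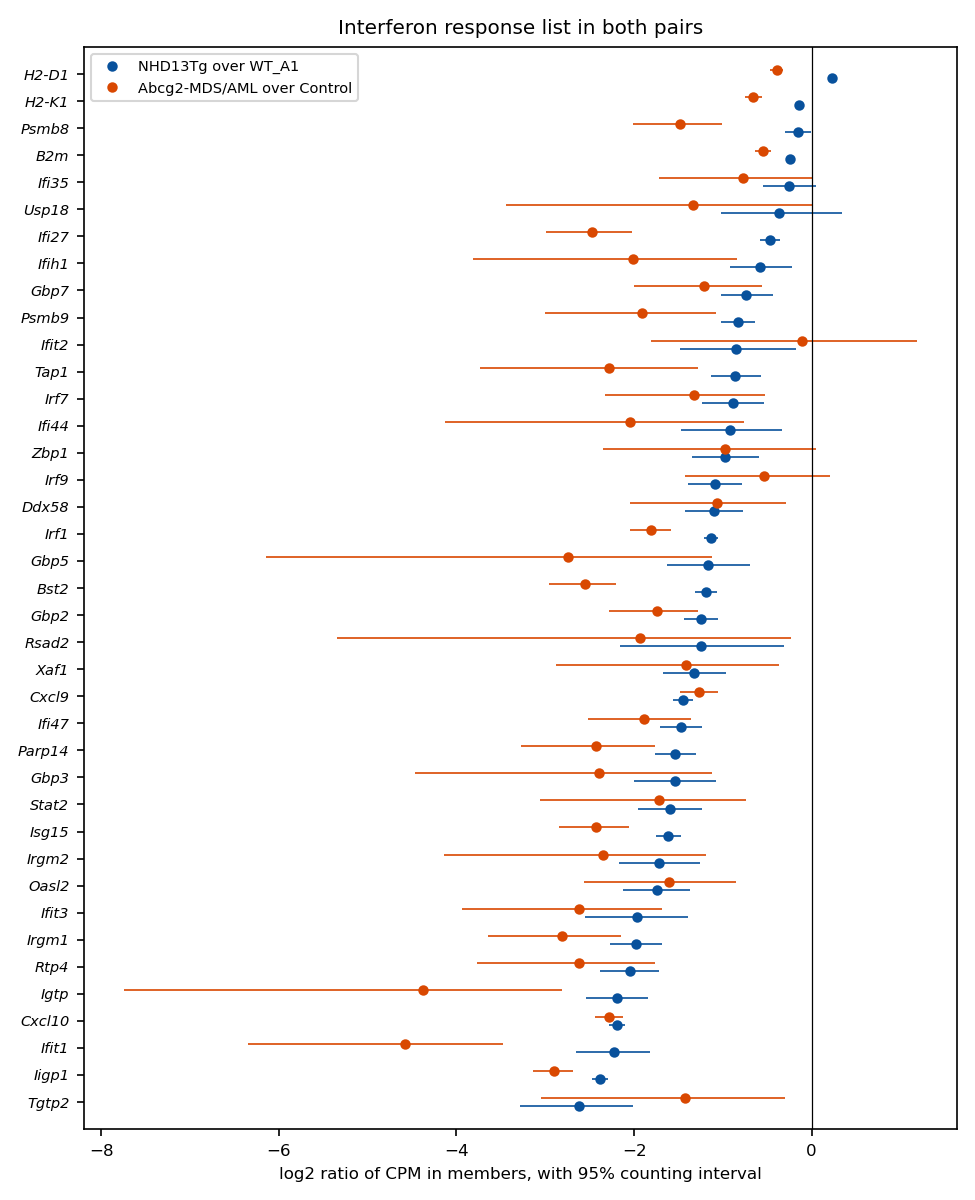
Log2 ratio of CPM in members, with 95% counting intervals, for measured genes of the interferon response list in the NHD13 pair (blue) and the Abcg2 pair (orange). Nearly all points lie below 0 in both pairs, and H2-D1 is the gene with an NHD13 ratio above 0.

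The rule genes and markers had 0 matches of that motif in the 5 of 6 promoters in the table. They also had 0 matches of TTGCNNAA, a form of the C/EBP motif, and 0 of TCCC, any 2 bases and GGGA, a form of the EBF motif, which 247 of the 27025 genes (0.914%) hold. No match says only that these letters are not in this window. TTGCNNAA was found in 9 of 20 plasma protein and acute-phase genes in the table (45.0%) and in 2930 of all 27025 genes (10.8%). The Saa3 stretch, chr7:46715677-46715836, minus strand, is shown since Saa3 was the acute-phase gene with the largest ratio in the NHD13 pair. Its match, in capitals, is the reverse complement of TTGCNNAA.
Saa3: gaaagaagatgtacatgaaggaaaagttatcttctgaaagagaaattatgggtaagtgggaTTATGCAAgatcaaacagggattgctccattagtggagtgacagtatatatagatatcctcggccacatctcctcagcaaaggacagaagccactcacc
In Control Saa3 had 0 UMIs in members and in Abcg2-MDS/AML 25, at least 23.1-fold higher against a floor of 3 counts. Members with a Saa3 UMI at 2000 UMIs per cell were 1.88, 9.8, 0 and 2.86%, against 0.28, 0.543, 0.0211 and 1.57% of the other kept barcodes.

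**Figure D4:**
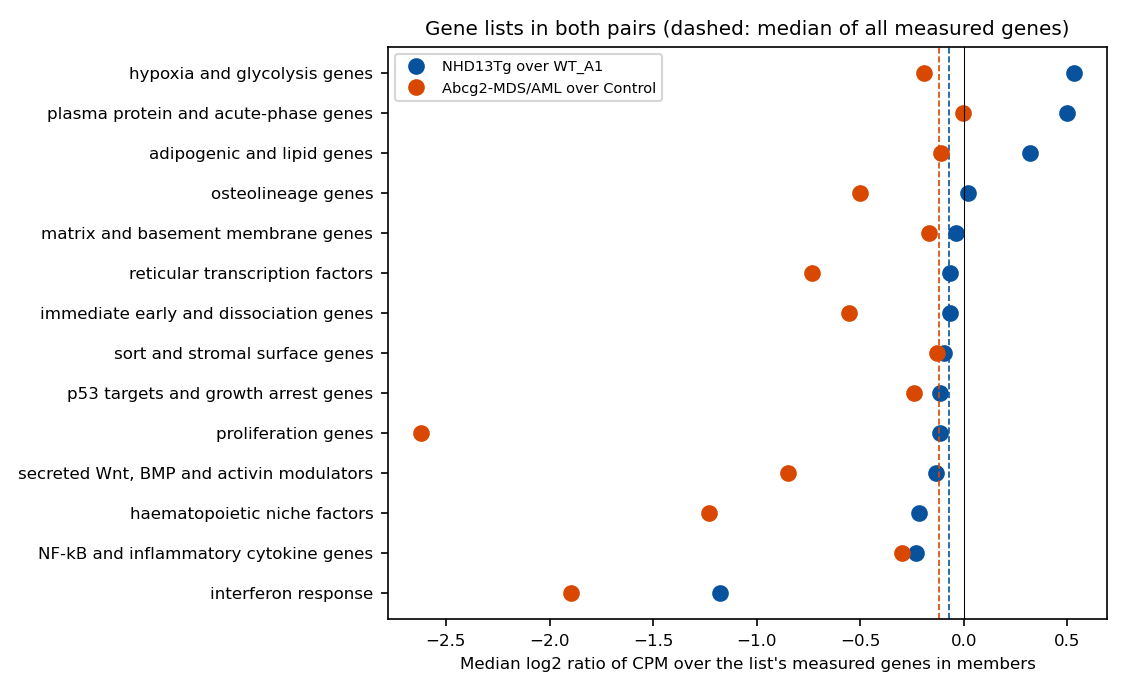
Median log2 ratio of CPM over the measured genes of each list in members, for the NHD13 pair (blue) and the Abcg2 pair (orange), with dashed lines at the median of all measured genes. The interferon list lies at -1.18 and -1.90, and the hypoxia, plasma protein and adipogenic lists lie at 0.53, 0.50 and 0.32 in the NHD13 pair. The proliferation value of -2.62 rests on few UMIs and is -0.67 with 8 genes at 0 set to their bound.

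A joint test asked which genes differ in the same direction in both models. Counts summed over members were tested with edgeR's quasi-likelihood test, with the pair and the model as terms and 1 residual degree of freedom. Of 10381 genes, 0 (0%) were higher and 0 (0%) lower at a Benjamini-Hochberg adjusted p under 0.05, and the lowest adjusted p in edgeR was 0.326. At an unadjusted p under 0.05, 148 were higher and 251 lower. DESeq2 called 5 higher and 9 lower. Among the lowest adjusted p were Ifitm1, an interferon-induced membrane protein gene with a joint log2 ratio of 2.46, and Bnip3 at 2.24 among the higher genes. Among the lower genes were Iigp1 at -2.55 (adjusted p = 0.329 in edgeR), Irgm1 at -2.25 and Rtp4 at -2.20. Lower genes outside the interferon list stood as low in adjusted p, among them Angptl1 at -2.37, Col2a1 at -2.44 and Col10a1 at -7.97. Past the 2-fold size rule, 17 genes were higher in both pairs (36.2% of the 47 in the NHD13 pair and 5.30% of the 321 in the Abcg2 pair that were considered in both). Lower in both were 52 genes (53.1% of 98 and 6.81% of 764), while 8 were higher in NHD13Tg and lower in Abcg2-MDS/AML and 12 the reverse. Over all 6497 genes considered in the Abcg2 pair, 7.85% were higher and 13.3% lower. Over the 6176 of the NHD13 pair these shares were 1.02% and 1.88%. Whether any of the overlaps exceeds what such shares give was not tested. The genes higher in both by rank were Serpina3m, Slc10a6, Ifitm1, Serpina3n, Inhbb, Cirbp, Ddit4 and Rapgef4.

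Members also differed among themselves. For each gene the variance of its count over members, thinned to 2000 UMIs per cell, was divided by the mean (the Fano factor, which is 1 for pure counting noise). Of 1576, 1554, 1572 and 1436 genes with a mean of at least 0.2 UMIs per cell, 191, 167, 173 and 240 had a Fano factor of at least 2. The median factor was 1.15, 1.12, 1.15 and 1.21, so for most genes the spread was close to that of counting noise.

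Besides the nuclear RNA Malat1, the ranking was led by inflammatory chemokine, immediate early and bone matrix genes. Ccl2, the monocyte chemokine gene, had Fano factors of 19.9, 22.1, 15.8 and 31.7, and the top 10% of members held 59.3, 75, 52.7 and 71.7% of its UMIs. Cxcl10 had factors of 15.6, 23, 14 and 8.02, and its top 10% of members held 72, 100, 46.5 and 77.3%. Few cells thus carried most of these transcripts, and in NHD13Tg the Cxcl10 UMIs all lay in the top 10% of members. At that depth 32.3, 7.96, 57.6 and 21.7% of members had a Cxcl10 UMI, against 3.18, 2.51, 1.44 and 4.47% of the other barcodes. Fos, a gene switched on within minutes of stress, had factors of 14.8, 13.5, 19.1 and 10.7. Ibsp (bone sialoprotein) had factors of 9.47, 8.74, 21.7 and 24.9, and Spp1, outside the ranking, had 11.4, 23.1, 35.1 and 175, with 36.9, 54.2, 78.3 and 88.6% of its UMIs in the top 10% of members.

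Of the reticular markers, Hp and Cxcl12 were within the ranking and the others were outside it. Cxcl12 had factors of 8.27, 7.1, 6.75 and 7.73, and its top 10% of members held 18.3, 18, 18.3 and 49.4% of UMIs. For Adipoq that share was 32.3, 27.6, 25.9 and 70.1%, and for Lepr 27.2, 28.9, 28.1 and 25.8%. At a given relative spread the Fano factor rises with the mean count. By the share, Cxcl12 was less concentrated than Adipoq and Lepr in WT_A1, NHD13Tg and Control. Adipoq had factors of 2.7, 2.9, 3.75 and 2.42, Lepr 1.91, 1.54, 1.68 and 1.49 and Gdpd2 1.54, 1.5, 1.52 and 2.3. Cells were chosen on the sum of Adipoq, Lepr and Esm1, so the spread of these genes is set in part by that choice. In Abcg2-MDS/AML the top 10% of members held 70.1% of Adipoq, 71.0% of Esm1 and 56.4% of Hp UMIs. The median member held 37, 35, 35 and 1 Cxcl12 UMIs at 2000 UMIs per cell. For the summed interferon list the medians were 30, 25, 36 and 17 UMIs, with quartiles of 21 to 40, 19 to 31, 25 to 52 and 3 to 28. The remaining genes of the ranking were Igfbp5, Hp, Cxcl1, Jun, Cxcl9, Egr1, Iigp1, Il6 and Adamts1.

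**Figure D5:**
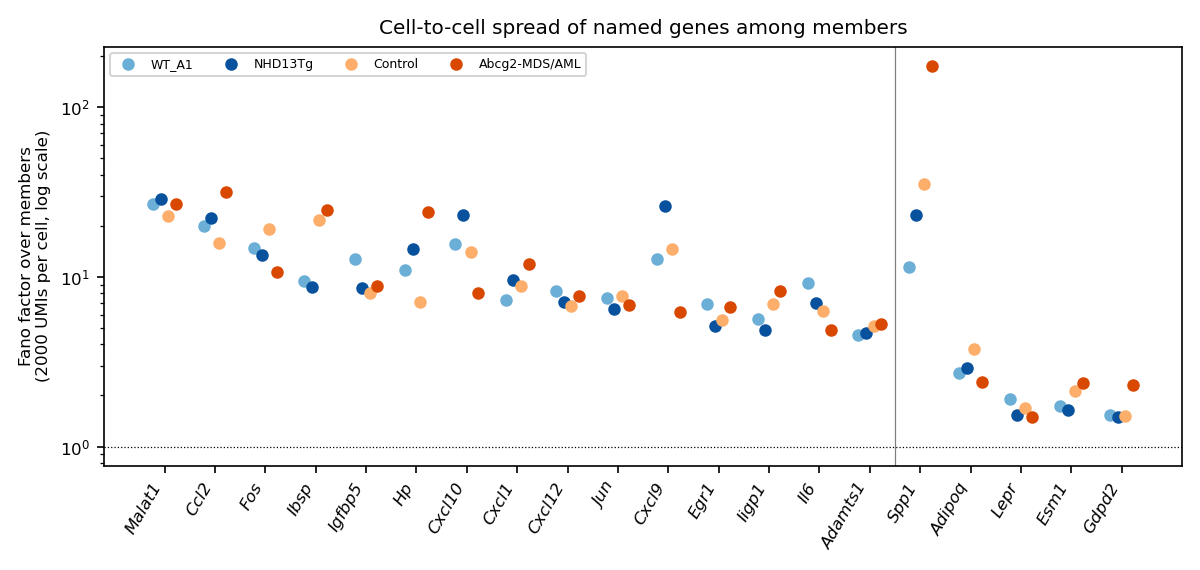
Fano factor over members at 2000 UMIs per cell (log axis) for the 15 genes named by the ranking and, right of the line, 5 further genes, in each library. The dotted line at 1 marks counting noise. Chemokine, immediate early and bone genes lie high, Adipoq, Lepr, Esm1 and Gdpd2 lie between 1 and 4, and Spp1 reaches 175 in Abcg2-MDS/AML.

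Across cells within a library, rank correlations of thinned counts are given as a description, since cells of 1 library are not replicates and share depth and free RNA. The sum of Adipoq and Esm1 correlated with Cxcl12 at 0.415, 0.394, 0.433 and 0.388, and with the summed adipogenic and lipid list, which holds neither gene, at 0.490, 0.413, 0.475 and 0.485. With Lepr it correlated at 0.005, -0.115, 0.130 and -0.152. Members rich in Adipoq and Esm1 thus tended to be rich in Cxcl12 and lipid genes. At this depth 12.2, 6.38, 2.59 and 64.6% of members held no Adipoq or Esm1 UMI, so bearing and Lepr-only members are mixed in these correlations. The rule sums Lepr with Adipoq and Esm1, so the values for Cxcl12, the lipid list and Lepr are all set in part by the choice of members. Interferon and NF-kB list sums correlated at 0.220, 0.098, 0.496 and 0.610.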

How the data were processed

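Single-cell 3' RNA libraries (Chromium Next GEM v3.1, NextSeq 500) were made from sorted marrow stromal cells, per the labels' protocols. The authors deposited raw matrices of UMI counts over 27998 genes and every barcode, without normalization or cell calling. Cell Ranger 3.1.0 and Seurat 3.2.3 are named, per the submitters' processing notes. The genome build used by the authors is not given in the sources used here.

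Kept barcodes and members followed the thresholds given above. Counts were summed over members in each library and expressed as CPM (counts per 1000000 summed UMIs). Members and other kept barcodes were compared with 10 CPM added, among genes of at least 20 CPM in members or others in every library. Ratios between libraries had 0.5 added to each count and 95% conditional binomial intervals. Genes reaching 20 CPM in either library of a pair entered the comparison, and a gene was called at 2-fold with an interval leaving out 1. List genes with at least 5 CPM counted as measured and were called at 1.5-fold. The floor for 0 counts was 3 counts. The joint test used edgeR 4.0.16 (TMM, filterByExpr) in R 4.3.3, with DESeq2 1.42.0 as an alternative, and was tested on simulated data. Other steps ran in Python 3.11.15 with scipy 1.17.1 and scanpy 1.11.5. Doublets were kept, and an alternative removed the highest Scrublet scores at 0.8% per 1000 kept barcodes, which took 198, 266, 213 and 250 barcodes. Depth per library runs from 611409 to 9361356 UMIs over members, and intervals cover counting error only.

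Named genes were those with the largest ratios by rule: 20 higher and 10 lower in identity, 10 per direction and pair, 8 per direction in both pairs, 15 by Fano factor, and chosen members of 16 lists. Genes whose free RNA reached the level of the members, mitochondrial and sex-linked genes were left out of those rankings, except that free RNA was not used for the genes lower in members than in the others. Some genes that the rules take are not reported here. Of 439 list symbols, 4 did not match the files. The members, lists and rules were chosen with earlier results of these data known. The Lepr-only split, and the alternatives with bearing members only and without the Abcg2-MDS/AML library, were chosen after seeing the data. Alternatives covered the UMI and level thresholds, filters, added counts, doublets, free RNA, normalization and the left-out libraries.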

Additional observations from a re-analysis of the deposited data

Results flagged for a closer look

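Among the genes followed by name, the following 6 had log2 ratios of opposite sign in the pairs, each at least 2-fold, with 1 library per group. Over all genes past the size rule, 8 were higher in NHD13Tg and lower in Abcg2-MDS/AML, and 12 were the reverse. The directions among these 6 therefore do not stand for those of all such genes. Of all 6497 genes considered in the Abcg2 pair, 7.85% were higher and 13.3% lower. The difference between the pairs was not tested for any of the 6 genes. Lrg1, the plasma glycoprotein gene, was at 2.62 in the NHD13 pair and -1.38 in the Abcg2 pair, with 50.1, 308, 40.1 and 14.7 CPM in members. Mmp13, the collagenase gene, was at 2.05 and -1.76, with 405, 1677, 1364 and 402 CPM. Limch1, an actin-binding protein gene of the osteolineage list, was at 1.57 and -1.57, with 202, 602, 274 and 91.6 CPM. Sfrp1, a secreted Wnt antagonist gene, was at 1.28 and -1.60, with 98, 238, 116 and 37.6 CPM. Kng2, a kininogen gene, was at 1.12 and -1.23, with 402, 875, 494 and 209 CPM. Igfbp3, an insulin-like growth factor binding protein gene, went the other way at -1.54 and 1.34, with 247, 85.1, 322 and 818 CPM. Among members bearing Adipoq or Esm1, Igfbp3 stood at 264, 88, 329 and 1392 CPM and Lrg1 at 53.1, 319, 41 and 20.9 CPM.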

How the results depend on the processing

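Of 132 alternative values for the counts and shares above, 91 kept their direction and stayed within the limits set (1.5 times for a count, the interval for a share). Of 3536 values for named genes and lists, 529 moved beyond their interval or limit and 9 were counted as a change of sign. That count covers only genes past the 2-fold size rule and lists whose median was larger than its limit. Other changes of sign are not in it, such as Hp in the Abcg2 pair, which was lower over all members and higher among bearing members. The order of the member shares, NHD13Tg, WT_A1, Control and Abcg2-MDS/AML, held under each threshold. With at least 1000 UMIs the shares were 14.9% in WT_A1, 9.24% in Control and 3.82% in Abcg2-MDS/AML. With 4000 UMIs they were 11.5%, 28.9%, 4.59% and 1.27% in the usual order. At 5 UMIs per 10000 of the rule genes they were 18.3%, 37.5%, 9.91% and 7.18%, and at 20 UMIs per 10000 they were 10.6% in WT_A1, 28.0% in NHD13Tg and 1.07% in Abcg2-MDS/AML.

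Genes lower in members than in the others (53) came to 25 at 5 UMIs per 10000, 121 at 20, 132 with bearing members only, 31 with a 50 CPM filter and 151 without Abcg2-MDS/AML, where 406 were higher. With genes left out whose free RNA reached the level of the members in any library, 0 remained. For each of the 53, free RNA thus reached the level of the members in at least 1 library. In the NHD13 pair a 50 CPM filter gave 37 higher and 53 lower, and no filter beyond 1 UMI gave 190 and 651. In the Abcg2 pair the 50 CPM filter gave 259 and 485, while 20 UMIs per 10000 gave 539 lower and 5 added to each count gave 517. The joint test called 5 higher and 9 lower with DESeq2, 53 and 74 with every gene of at least 1 UMI, and 4 and 10 at 20 UMIs per 10000. Leaving out each library in turn, with no pair term, gave 0 to 9 higher and 0 to 6 lower, and the calls came without NHD13Tg. Labels give no replicate numbers. With no replicate block (no pair in the model) edgeR called 0 higher and 0 lower. Genes with a Fano factor of at least 2 came to 86, 70, 82 and 115 when cells were thinned to 1000 UMIs, where counting noise is a larger part.

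The median of immediate early genes in the NHD13 pair (-0.07) was 0.029 with 4000 UMIs, 0.013 at 20 UMIs per 10000 and 0.038 without genes of high free RNA. In the Abcg2 pair Tgtp2 was at 0.091 with 4000 UMIs. At 20 UMIs per 10000 Bglap was at -0.74 and Spp1 at -0.16, and with bearing members only Bglap was at -2.53, Spp1 at -0.32 and Dmp1 at -0.28. The cause of these shifts was not tested. Depth limits the Abcg2 pair most, since 611409 UMIs leave a gene with 0 counts at up to 4.91 CPM (3 counts).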
